A study of Mus musculus with 4 samples.

Results

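The collagen and laminin matrix genes are the genes that encode the fibres and sheets outside cells, together with a few of their binding partners. They were chosen by gene name on the array: names that begin with Col, a number, a and a number, or with Lam, one of a, b or c, and a number, plus Fn1, Sparc, Dcn, Lum, Nid1, Nid2, Hspg2 and Fbn1. The rule found 63 genes, carried by 93 probes, of 22317 genes named on the array. One match, Col4a3bp, encodes a ceramide transfer protein and no collagen, and is counted but named apart. Emid2, now called Col26a1, is a collagen that the name pattern missed, and its probe was not well above background on any of the 4 arrays.

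Collagens form triple helices built of Gly-X-Y repeats. Fibrillar collagens assemble into the cables of connective tissue, and network collagens, with laminins, nidogens and perlecan, into basement membranes. Laminins are trimers of an alpha, a beta and a gamma chain that cells grip through integrins. In spleen and thymus these proteins are mainly made by fibroblastic, endothelial and, in the thymus, epithelial cells, and make up the reticular fibres on which lymphocytes move.

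The data are 4 one-colour microarrays of regulatory T cells (Tregs), which hold back immune responses and depend on the transcription factor Foxp3. The groups were Tregs of thymus from deltaDC mice, thymus from wild-type (WT) mice, spleen from deltaDC mice and spleen from WT mice, with 1 array each. All mice were male C57BL/6, and their age is not given in the labels. The labels neither spell out deltaDC, which in the field names mice depleted of dendritic cells, nor name an altered gene, driver or clone. Cells of 3 mice were pooled per genotype, so both organs of a genotype came from the same animals. Splenic CD4 T cells were isolated by a negative-selection kit and thymocytes by depletion with an anti-CD8 antibody. Live cells were then sorted on CD4 and CD25, but not on Foxp3. Without replicate arrays, a difference between any 2 arrays has no test here, and the error given with it is the SD expected from repeated spots of a probe, which holds no variation between animals or labellings.

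All signals are fluorescence intensities scaled to a common 75th percentile, and can be compared between arrays for a gene but not between genes. Between 48.7% and 50.7% of spots were well above background, and the lowest such signal on an array lay between 15.04 and 19.5. The repeated-spot SD of a log2 signal was 0.35 below a signal of 50, 0.13 from 50 to 200 and 0.08 from 200 to 1000. All 8 markers of T cells and Tregs, Foxp3 and Il2ra among them, were well above background on all 4 arrays, with summed signals between 250179 and 278915. None of the 8 differed by 2-fold in any of the 4 comparisons. The sums do not show that Il2ra had 15521 in deltaDC spleen and 28920 in WT spleen, a log2 difference of -0.90. Precision is limited by there being 4 arrays. In sorted bulk cells, fewer cells of a type and less RNA per cell cannot be told apart.

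Most of the matrix genes were dim in these cells. Of the 63 genes, 35 were not well above background on any array, with signals between 3.12 and 17.8. Another 28 (44.4%) were well above background on at least 1 array and 15 (23.8%) on all 4, whereas 65.1% and 55.1% of all named genes were. Of the 63, 27 (42.9%) were above background on the deltaDC thymus array and 23 (36.5%) on the WT thymus array. On the deltaDC spleen array 21 (33.3%) were, and on the WT spleen array 16 (25.4%). Over all named genes the shares were 60.6%, 59.9%, 60.1% and 57.6% in the same order. The lowest signal that counted was 19.5 on the WT spleen array, against 15.04 to 15.8 on the others. The collagens were the darker family, with 14 of 43 above background on at least 1 array and 7 on all 4. Of the 11 laminin chains, 8 were above background on at least 1 array and 5 on all 4.

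**Figure D1:**
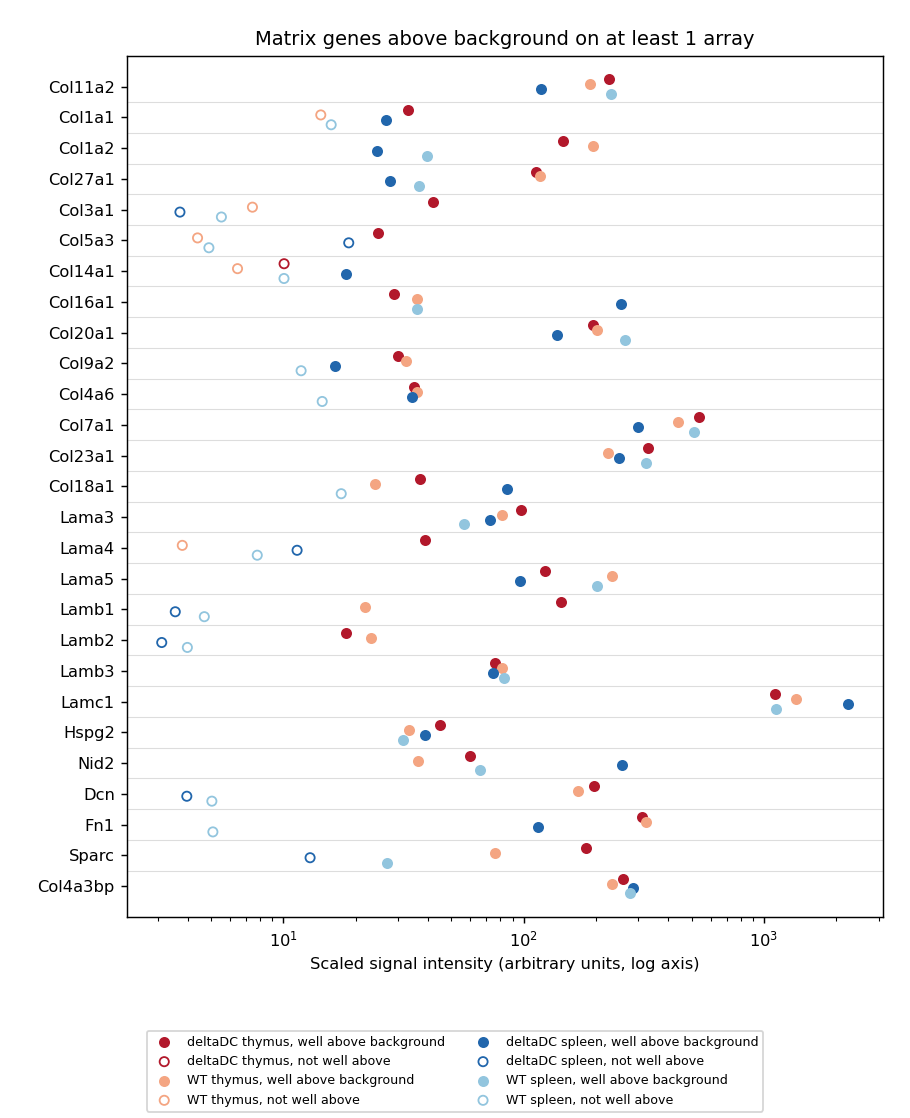
Scaled signal (arbitrary units, log axis) of 27 of the 28 matrix genes well above background on at least 1 array, grouped by role, with 1 point per array, filled where well above background and open where not. Points can be compared along a row only. Lamc1 and Col7a1 are filled on all 4 arrays, while Dcn, Lamb1 and Lamb2 are filled on both thymus arrays only.

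Fibrillar collagens had 6 of 11 genes above background on at least 1 array. Col1a2, the alpha 2 chain of type I collagen, and Col27a1, a fibrillar collagen of cartilage, were on all 4. Col1a1, which encodes the partner chain of Col1a2, was above background on the deltaDC thymus array (33.0) and the deltaDC spleen array (26.7), but not on the WT thymus array (14.3) or the WT spleen array (15.8). Col3a1, the type III collagen of reticular fibres, and Col5a3 were above background on the deltaDC thymus array alone. Of the 9 network collagens, 8 were dark on every array by the probe that stands for each gene, and Col4a6 was seen on all arrays but WT spleen.

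Several members had close signals on the arrays where they were seen. Col4a6, a basement membrane collagen chain, had 35.0 in deltaDC thymus, 36.1 in WT thymus, 34.4 in deltaDC spleen and 14.5 (dim) in WT spleen. Col9a2, a fibril-associated collagen of cartilage, had 29.98 in deltaDC thymus, 32.4 in WT thymus, 16.4 in deltaDC spleen and 11.9 (dim) in WT spleen. Both were thus dim in WT spleen alone. For Col9a2, the deltaDC spleen signal of 16.4 was itself below 19.5, the lowest signal that counted as well above background in WT spleen. Hspg2, the proteoglycan perlecan, had 44.7 in deltaDC thymus, 33.4 in WT thymus, 38.8 in deltaDC spleen and 31.5 in WT spleen. Lama3 had 97.7 in deltaDC thymus, 81.0 in WT thymus, 72.7 in deltaDC spleen and 56.4 in WT spleen. Neither spread over more than 2-fold. Lamb3 had 76.0 in deltaDC thymus, 81.4 in WT thymus, 74.7 in deltaDC spleen and 82.8 in WT spleen. Col23a1 had 328 in deltaDC thymus, 225 in WT thymus, 248 in deltaDC spleen and 321 in WT spleen. Col4a3bp, the match that is no matrix gene, lay between 234 and 286 on the 4 arrays.

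In spleen, matrix genes differed between deltaDC and WT cells in both directions. Among the 15 matrix genes measured in spleen with either genotype, 4 were at least 2-fold higher in deltaDC cells and 1 was at least 2-fold lower. Over all genes measured on both, 6.41% were at least 2-fold higher and 2.01% at least 2-fold lower, so this pair of arrays differed widely, and neither count was tested. With the authors' normalized matrix 4 members were higher and 3 lower, at a 1.5-fold limit 4 and 5, and after normexp background correction 3 and 0. The median log2 difference of the 15 was -0.15, against -0.005 over all 12531 genes measured on both. Of the 15, 7 were positive and 8 negative, while over all genes 6180 were positive and 6351 negative. The members thus went both ways, from -1.06 for Lama5 to 2.81 for Col16a1.

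Col16a1 encodes a collagen that sits on the surface of fibrils and near basement membranes. Its signal was 253 in deltaDC spleen and 36.1 in WT spleen, a log2 difference of 2.81 with a repeated-spot error of 0.36, or 7.03-fold. In thymus it was 28.8 in deltaDC and 36.1 in WT cells, a difference of -0.33 with an error of 0.50. The deltaDC spleen array stood alone, and the other 3 lay within 1.5-fold of each other.

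This value rests on 1 of 4 probes for Col16a1. The others were not well above background on any array, and the nearest and the farthest of them are shown with it. The fourth probe, A_55_P2056744, lies 5587 bases upstream and is not shown. Capitals mark an AATAAA hexamer, the usual signal for cleavage and polyadenylation of a transcript, or the GG that begins glycine codons. Each line gives the first 30 of a probe's 60 bases and the position of the whole probe on mm9, plus strand, as the deposited files state it. Exons and UTRs are not assigned, since no annotation of that build was used here.
Col16a1 probe A_55_P2056739, measured, chr4:129776333-129776392: ttgaaactcccgcccacactgagatgaagg
Col16a1 probe A_55_P2124751, dim, chr4:129776460-129776519: ttttttaacAATAAAgaaaactatttgtaa
Col16a1 probe A_55_P2056735, dim, chr4:129756457-129756516: ttctggagaaaGGagaaaagGGggaccagg
The measured probe also holds an AATAAA hexamer, which begins at base 42, past the stretch shown. The next probe starts 67 bases downstream of its end. The last of them lies 19816 bases upstream and holds 5 codon starts of GG in 1 reading frame, 4 pairs of them 9 bases apart, the spacing of a Gly-X-Y repeat. Their signals in deltaDC spleen were 17.6 (A_55_P2124751) and 16.6 (A_55_P2056735), against 8.18 and 11.6 in WT spleen, none of them well above background. With the median over its probes in place of the brightest, the Col16a1 difference in spleen was 0.81.

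Nid2 encodes nidogen-2, which links laminin to the collagen IV network. It had a signal of 257 in deltaDC spleen and 65.7 in WT spleen, a log2 difference of 1.97 with an error of 0.15 (3.90-fold). In thymus its signals were 59.6 in deltaDC and 36.2 in WT cells, a difference of 0.72 with an error of 0.38. The direction was thus the same in both organs, with the deltaDC spleen array highest of the 4. Hspg2, which encodes the proteoglycan perlecan, differed by 0.30 in spleen and 0.42 in thymus, both inside its error of 0.50. A second Hspg2 probe, also above background on all 4 arrays, gave -0.38 in spleen and 0.30 in thymus. Nid1, the first nidogen, was dark on every array.

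Lamc1, the gamma chain of most laminins, had a signal of 2245 in deltaDC spleen and 1117 in WT spleen, a log2 difference of 1.01 with an error of 0.08, which is 2.01-fold and only just inside the 2-fold limit. In thymus it was 1108 in deltaDC and 1354 in WT cells, a difference of -0.29. Lama3, an alpha chain of epithelial laminins, differed by 0.37 in spleen, and Lamb3, a beta chain of epithelial laminins, by -0.15, with an error of 0.18 each.

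Lama5, the alpha chain of laminin-511, went the other way in both organs. It had signals of 96.9 in deltaDC spleen and 202 in WT spleen, a log2 difference of -1.06 with an error of 0.15 (2.09-fold lower). In thymus its signals were 122 in deltaDC and 232 in WT cells, a difference of -0.93. Both deltaDC arrays were below both WT arrays. Fitting genotype and organ together over the 4 arrays with limma gave a genotype difference of -0.995 (SE 0.14), an unadjusted p of 0.0070 and a Benjamini-Hochberg adjusted p of 0.81.

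Of the 7 collagens measured in spleen, all but Col16a1 had lower signals in deltaDC than in WT cells, none by 2-fold. Over all genes measured on both spleen arrays, 6351 of 12531 were lower in deltaDC. Another 5 collagens were seen in deltaDC spleen only and 0 in WT spleen only, so the collagens did not share 1 direction. Col11a2, a cartilage collagen chain, had 118 in deltaDC and 229.9 in WT spleen, a log2 difference of -0.96 with an error of 0.15. Col20a1, a fibril-associated collagen, had 137 in deltaDC and 264 in WT spleen by 1 probe, and 140.4 and 269 by another, differences of -0.95 and -0.94. Col7a1, which forms the anchoring fibrils under epithelia, had 299 in deltaDC and 514 in WT spleen, a difference of -0.78 with an error of 0.11. In thymus, the signals were 226 in deltaDC and 189.7 in WT cells for Col11a2, 195 and 202 for Col20a1, and 535 and 440 for Col7a1. Col23a1, a transmembrane collagen, differed by -0.37 with an error of 0.11, and Col1a2 by -0.68 with an error of 0.50. Col27a1 differed by -0.40, inside its error of 0.50.

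A further 6 matrix genes were above background in deltaDC spleen only, and 1 in WT spleen only. For these the difference is a bound, the bright signal against the lowest signal that counted as well above background on the other array, or against its own dim signal where that was higher. By bound, 2 of the 6 were at least 2-fold higher (30.3% of all genes seen in deltaDC spleen only) and the 1 was not at least 2-fold lower (40.9% of all genes seen in WT spleen only). Fn1, which encodes fibronectin, a glycoprotein that binds integrins and collagen, had a signal of 115 in deltaDC spleen and 5.09, not well above background, in WT spleen, so it was at least 5.90-fold higher. Col18a1, the basement membrane collagen whose end fragment is endostatin, had 84.9 in deltaDC spleen and 17.4, not well above background, in WT spleen, at least 4.35-fold higher, and a second probe gave at least 4.12-fold. In thymus Col18a1 had 37.1 in deltaDC and 24.05 in WT cells by the first probe, and 26.9 and 29.2 by the second. Sparc, a collagen-binding matricellular protein, was the gene seen in WT spleen only, with 12.9 (dim) in deltaDC and 26.98 in WT cells, at least 1.79-fold lower.

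Markers of several other cell types differed between the same spleen arrays, and their part in these differences was not tested. Of 8 neutrophil markers, 8 were above background in deltaDC spleen and 2 in WT spleen, with summed signals of 9948 and 137. Macrophage and monocyte markers summed to 4037 in deltaDC and 2406 in WT spleen, with 11 and 10 of 14 above background, and platelet markers to 266 and 149, with 6 and 3 of 8. Erythroid markers summed to 6040 in deltaDC and 2315 in WT spleen, with 5 and 4 of 6 above background. Dendritic cell markers summed to 64352 and 103662, with 6 and 3 of 10 above background. Of the 3 measured on both, Batf3 was 4.60-fold higher in deltaDC, and Siglech and Ccr7 were lower, neither by 2-fold. By bound, Itgax and Zbtb46 were at least 4.81-fold and 4.65-fold higher, beside 30.3% of all such genes at least 2-fold higher. Fibroblast and mural markers summed to 452 in deltaDC and 777 in WT spleen, with 5 and 6 of 17 above background. The fibroblast and mural genes Fap, Ccl19, Acta2 and Tagln were well above background on all 4 arrays, and Pdgfra, Dpt, Tcf21, Cxcl13, Rgs5, Cspg4, Des and Twist1 on none. Of the endothelial genes, Pecam1, Kdr, Egfl7 and Stab2 were on all 4 arrays, and Cdh5, Tek, Tie1, Emcn, Esam, Cldn5, Sox17 and Sox18 on none. Endothelial markers summed to 2157 in deltaDC and 2252 in WT spleen, with 7 and 4 of 15 above background. Most of these sums came from Pecam1 (937 in deltaDC and 1219 in WT spleen) and Kdr (849 and 859). Of the 4 endothelial genes measured on both spleen arrays, 1 was at least 2-fold higher in deltaDC, Stab2 (2.12-fold), and 0 at least 2-fold lower. Over all genes the shares were 6.41% and 2.01%.

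In thymus, 209 of 13040 genes measured on both arrays differed by at least 2-fold between genotypes, against 1055 of 12531 in spleen. Of 23 matrix genes measured on both thymus arrays, 2 were at least 2-fold higher in deltaDC cells (0.928% of all genes measured on both) and 0 at least 2-fold lower (0.675%). The median log2 difference of the 23 was 0.15, against 0.05 over all genes measured on both. Of the 23, 12 were positive and 11 negative, while over all genes 7845 were positive and 5195 negative. No test accompanies these counts.

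Lamb1 encodes the beta chain shared by most laminins of vessels and early tissues. Its signal was 142 in deltaDC thymus and 21.8 in WT thymus, a log2 difference of 2.71 with an error of 0.38, or 6.53-fold. It was not well above background in either spleen, with 3.55 in deltaDC and 4.69 in WT cells. Lamb2, the beta chain of vessel and muscle laminins, showed no such gap in thymus, with 18.2 in deltaDC and 23.1 in WT cells, nor did Lamb3, with 76.0 and 81.4. The single Lamb1 probe was A_66_P101600, at chr12:32014411-32014470 on mm9, plus strand, and is shown by its first 30 bases because no other probe bears on this difference.
Lamb1 probe A_66_P101600: ccgaggcagtcatctacaaataacccatca

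Sparc had a signal of 182 in deltaDC thymus and 76.0 in WT thymus, a log2 difference of 1.26 with an error of 0.18 (2.39-fold). In spleen the order of the genotypes was the other way, as given above. The Sparc value came from 1 of 2 probes on the minus strand of chromosome 11, and the other, 877 bases downstream, was not well above background on any array and held an AATAAA hexamer from base 34 on. With the median of both, the difference was 0.62 in thymus. Their first 30 bases are set side by side because only the first of them carries the result.
Sparc probe A_55_P2046812, measured, chr11:55208939-55208998: ggctgttccgcctggggataaggtgctaac
Sparc probe A_55_P2046807, dim, chr11:55208003-55208061: acagcaatgtgaagagcttgacaagtcttt

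**Figure D2:**
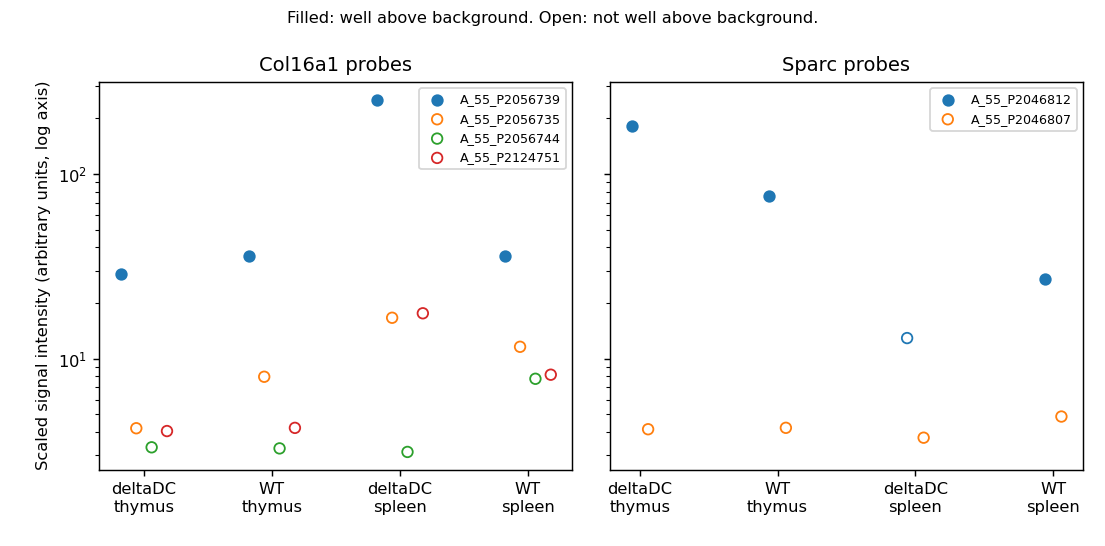
Scaled signal (arbitrary units, log axis) of each Col16a1 probe (left) and each Sparc probe (right) on the 4 arrays, filled where well above background and open where not. One Col16a1 probe is filled on all 4 arrays and one Sparc probe on all but deltaDC spleen, while the other probes are open throughout, and the filled Col16a1 probe is highest in deltaDC spleen at 253.

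Another 4 matrix genes were seen in deltaDC thymus and not in WT thymus, and none the other way. By bound, 3 of the 4 were at least 2-fold higher in deltaDC (33.7% of all genes seen in deltaDC thymus only). Over all genes seen in WT thymus only, 26% were at least 2-fold lower by bound. Col3a1 had a signal of 41.9 in deltaDC thymus and 7.44 (dim) in WT thymus, at least 2.68-fold higher. Lama4, the alpha chain of vessel laminins, had 38.8 in deltaDC and 3.80 (dim) in WT thymus, at least 2.47-fold higher. Col1a1 had 33.0 in deltaDC and 14.3 (dim) in WT thymus, at least 2.11-fold higher. Its partner chain Col1a2 had 146 in deltaDC and 195 in WT thymus, a log2 difference of -0.41 with an error of 0.18.

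Fn1 and Dcn differed little between genotypes in thymus. Fn1 had 311 in deltaDC and 323 in WT thymus, and Dcn, which encodes decorin, a small proteoglycan on collagen fibrils, had 195 and 168. Markers of other cells were again not equal between the arrays, and their part was not tested. Thymic epithelial markers summed to 4117 in deltaDC and 2443 in WT thymus, with 10 and 9 of 13 above background, and endothelial markers to 3337 and 2708, with 6 of 15 above background on each. Fibroblast and mural markers summed to 907 in deltaDC and 823 in WT thymus, with 8 and 7 of 17 above background. Neutrophil markers summed to 2433 in deltaDC and 929 in WT thymus, with 5 of 6 measured genes at least 2-fold higher in deltaDC. B cell markers summed to 5902 in deltaDC and 3386 in WT thymus, with 4 of 6 measured genes at least 2-fold higher. Erythroid markers summed to 16695 and 4317, with 3 of 4 at least 2-fold higher. Over all genes measured on both thymus arrays, 0.928% were at least 2-fold higher in deltaDC. The thymic epithelial genes Foxn1, Aire and Cldn3 were not well above background on any array, whereas Epcam, Krt14, Krt18 and Ccl25 were on all 4.

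Over the 4 arrays, the additive limma fit of genotype and organ called 0 of 24 matrix genes and 0 of 13494 genes (0% of those tested) for genotype at a Benjamini-Hochberg adjusted p of 0.05. At an unadjusted p of 0.05 it passed 4 of the 24 (Col1a1, Col1a2, Lama5 and Nid2) and 589 of all genes, and the lowest adjusted p of a matrix gene was 0.81. The fit has 1 residual degree of freedom, takes the genotype difference as equal in both organs, and uses the signals of dim genes as they are. Of the 15 matrix genes seen on all 4 arrays, 2 (Col16a1 and Nid2) were at least 2-fold above every other array in deltaDC spleen, as were 304 of 12286 genes in all.

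Between organs, several matrix genes had higher signals in thymic than in splenic cells of both genotypes. The organ comparisons within deltaDC and within WT use the same arrays as the genotype comparisons above. In deltaDC mice, 3 of 20 matrix genes measured on both arrays were at least 2-fold higher in thymus (5.38% of all genes) and 4 at least 2-fold lower (6.15%). In WT mice, 3 of 16 were at least 2-fold higher in thymus (6.51%) and 0 at least 2-fold lower (3.03%). By bound, 5 of 7 matrix genes seen only in thymus were at least 2-fold higher in deltaDC mice (55.7% of all such genes) and 2 of 7 in WT mice (44.6%). Only 1 matrix gene was seen in spleen only in deltaDC mice, and 0 in WT mice. That 1 gene was not at least 2-fold lower by bound, so almost nothing could be counted here. Over all genes seen in spleen only, 35.4% in deltaDC mice and 38.8% in WT mice were at least 2-fold lower by bound.

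Dcn was the one matrix gene of 24 that the additive fit called for organ, where 64 of 13494 genes were called (0.474%), 62 of them higher in thymus. Its signals were 195 in deltaDC thymus and 168 in WT thymus, against 3.96 in deltaDC spleen and 5.04 in WT spleen, both dim. Both thymus arrays were far above both spleen arrays. By bound it was at least 12.99-fold higher in thymus in deltaDC mice and at least 8.62-fold in WT mice. The limma organ difference was 5.34 on the log2 scale (SE 0.22) with a Benjamini-Hochberg adjusted p of 0.049, which ranged from 0.049 to 0.084 over 5 alternatives and so sits on the threshold. Since spleen was dim, the fitted size is no measured fold. The single Dcn probe lay at chr10:96980233-96980292 on mm9, plus strand, and is shown as the sequence behind the 1 call of the fit.
Dcn probe A_51_P334104: aacaccttcagatgtgtctatgtgcgttct

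Col1a2 had signals of 146 in deltaDC thymus and 195 in WT thymus, against 24.6 in deltaDC spleen and 39.5 in WT spleen. The groups did not overlap, and the log2 difference of thymus minus spleen was 2.57 in deltaDC and 2.30 in WT mice, each with an error of 0.38. The limma organ difference was 2.44 (SE 0.16) with a Benjamini-Hochberg adjusted p of 0.066, from 0.046 to 0.11 over 6 alternatives. Col27a1 had 113 in deltaDC thymus and 116 in WT thymus, against 27.8 in deltaDC spleen and 36.7 in WT spleen. Its differences were 2.02 in deltaDC and 1.67 in WT mice, and its adjusted p in the limma fit was 0.092. Sparc, with 182 and 76.0 in thymus against 12.9 (dim) and 26.98 in spleen, for deltaDC and WT in each organ, was at least 12.1-fold higher in thymus in deltaDC mice and 2.82-fold higher in WT mice (limma adjusted p of 0.22).

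Col1a2, Col27a1 and Sparc were higher in thymus in both genotypes, so the 250 bases before the start of each are shown, from RefSeq on GRCm38.p6, as listed for 44 of the 63 matrix genes. Matches to any of 3 motifs on either strand are in capitals. The TATA box was searched as TATAAA. The CCAAT box was searched as its own letters. The GC box was searched as GGGCGG, and none of the motifs contains another.
Col1a2, chr6:4505368-4505617, plus strand: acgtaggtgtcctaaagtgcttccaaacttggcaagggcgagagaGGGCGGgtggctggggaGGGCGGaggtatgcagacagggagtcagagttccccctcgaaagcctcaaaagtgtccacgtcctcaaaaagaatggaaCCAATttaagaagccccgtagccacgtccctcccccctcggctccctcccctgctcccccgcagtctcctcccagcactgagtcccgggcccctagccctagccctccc
Col27a1, chr4:63215162-63215411, plus strand: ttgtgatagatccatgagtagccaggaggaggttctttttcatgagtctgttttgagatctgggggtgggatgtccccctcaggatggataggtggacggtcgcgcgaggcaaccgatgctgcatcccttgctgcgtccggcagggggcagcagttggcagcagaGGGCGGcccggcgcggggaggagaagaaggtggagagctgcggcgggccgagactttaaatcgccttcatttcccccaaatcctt
Sparc, chr11:55420081-55420330, minus strand: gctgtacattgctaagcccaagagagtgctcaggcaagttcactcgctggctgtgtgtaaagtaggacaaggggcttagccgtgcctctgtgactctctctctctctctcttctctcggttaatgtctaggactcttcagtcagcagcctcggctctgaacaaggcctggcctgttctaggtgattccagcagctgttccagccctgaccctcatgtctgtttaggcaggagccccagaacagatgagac
The Col1a2 stretch held 2 GC boxes and 1 CCAAT box, the Col27a1 stretch 1 GC box, and the Sparc stretch no match. Among the 44 listed matrix genes, 26 held a GC box, 14 a CCAAT box and 5 a TATA box. Over all 27025 listed genes the shares were 32.9%, 34.5% and 12.97%. These matches describe letters and no binding was measured.

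Fn1 had signals of 311 in deltaDC thymus and 323 in WT thymus, against 115 in deltaDC spleen and 5.09 (dim) in WT spleen. WT spleen was the one array without it. It was 2.70-fold higher in thymus in deltaDC mice, a log2 difference of 1.43 with an error of 0.15, and at least 16.5-fold higher in WT mice, with a limma adjusted p of 0.29 for organ. Lamb1 was at least 9.47-fold higher in thymus in deltaDC mice and at least 1.12-fold in WT mice (limma adjusted p of 0.21). Lamb2 was above background on both thymus arrays and neither spleen array, by at least 1.21-fold in deltaDC and 1.18-fold in WT mice. Its signals of 18.2 in deltaDC thymus and 23.1 in WT thymus lay close to the lowest signals that were well above background. Col3a1 and Lama4 were at least 2.79-fold and 2.58-fold higher in thymus in deltaDC mice, and dim on both WT arrays. Their spleen signals, all dim, were 3.71 in deltaDC and 5.52 in WT cells for Col3a1, and 11.4 and 7.79 for Lama4.

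The 4 members at least 2-fold lower in thymus, all in deltaDC mice, were also higher in deltaDC than in WT spleen, and both comparisons use the deltaDC spleen array. In deltaDC mice, Col16a1 differed by -3.14, Nid2 by -2.11, Col18a1 by -1.19 and Lamc1 by -1.02 on the log2 scale. In WT mice Col16a1 differed by 0.002 and Nid2 by -0.86 with an error of 0.38, while Lamc1 differed by 0.28. A second Col18a1 probe gave -1.58 in deltaDC mice.

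**Figure D3:**
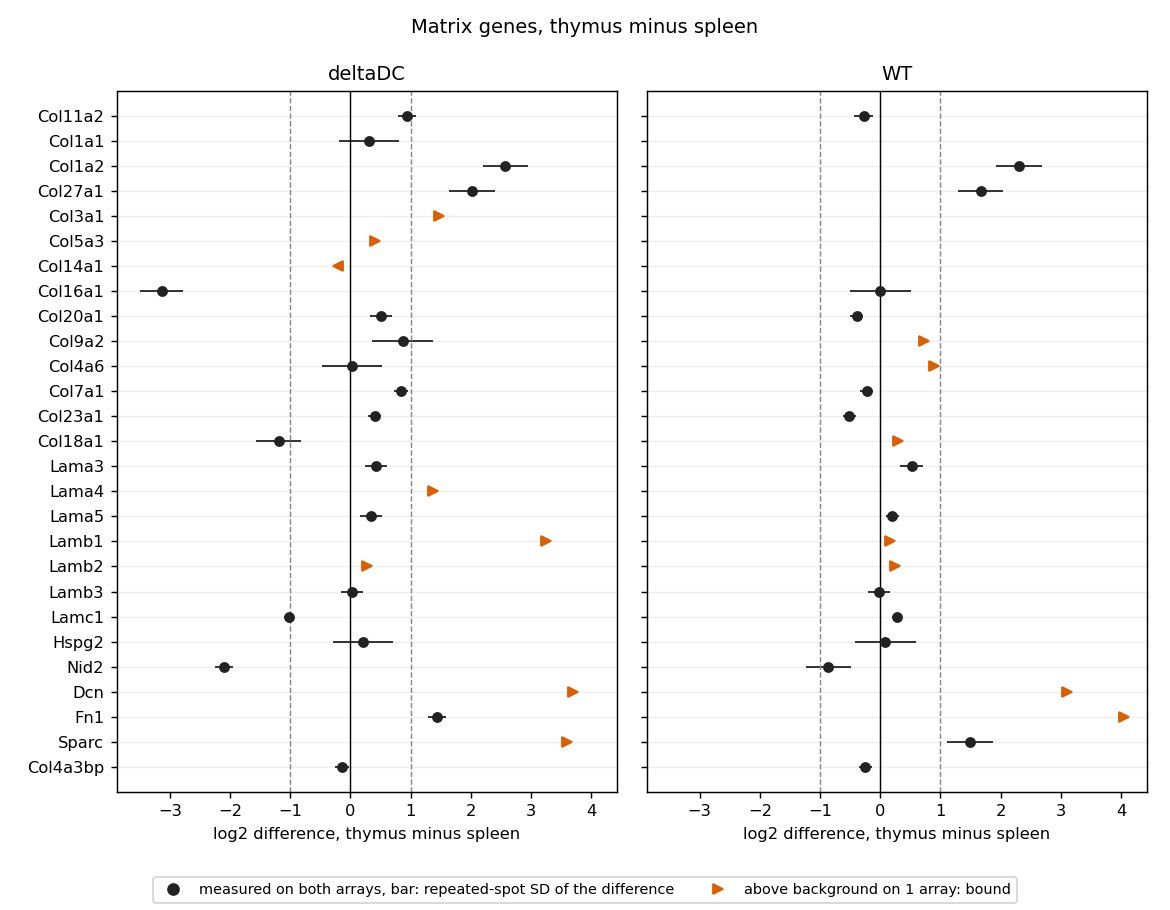
The log2 difference of thymus minus spleen for the same matrix genes, where seen on at least 1 of the arrays compared, in deltaDC (left) and WT mice (right), with symbols as in the plot of genotype differences. Col1a2 and Col27a1 lie beyond the dashed 2-fold line in both genotypes, Dcn and Fn1 are far to the right in WT mice, and Col16a1 stands at -3.14 in deltaDC mice against 0.002 in WT mice.

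Some markers of stromal and epithelial cells were higher in thymus and others were not, and their part in these differences was not tested. Thymic epithelial markers summed to 4117 in deltaDC and 2443 in WT thymus, against 876 in deltaDC and 895 in WT spleen. Of the fibroblast and mural markers, Pdgfrb, a receptor of pericytes and fibroblasts, had 112 in deltaDC and 120.0 in WT thymus, against 9.75 and 4.30, both dim, in spleen. The chemokine Cxcl12 had 80.7 in deltaDC and 55.0 in WT thymus and was dim in both spleens. The summed fibroblast and mural markers were 907 in deltaDC and 823 in WT thymus, against 452 in deltaDC and 777 in WT spleen. In WT mice, Tagln, a smooth muscle gene, had 289 in thymus and 411 in spleen, and Myh11, a smooth muscle myosin, was at least 4.00-fold lower in thymus. In deltaDC mice both went the other way. Tagln had 348 in thymus and 251 in spleen, and Myh11 was at least 1.98-fold higher in thymus. The keratin Krt14 had 36.6 in deltaDC and 40.6 in WT thymus, against 38.5 in deltaDC and 59.4 in WT spleen.

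**Figure D4:**
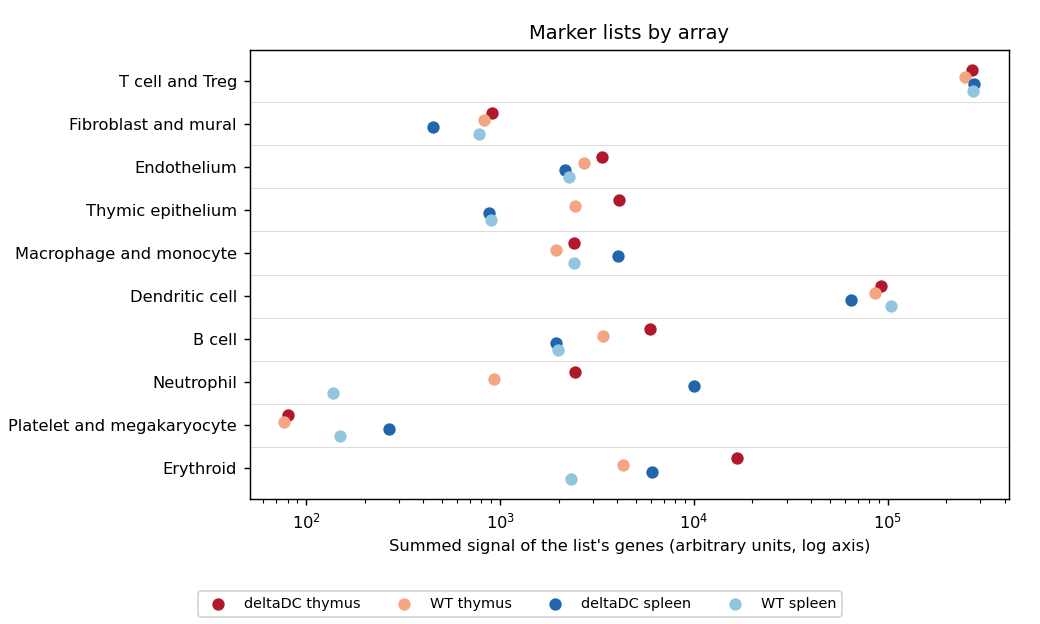
Summed signal of each cell type's marker list (arbitrary units, log axis), with 1 point per array. The T cell and Treg markers lie together on all 4 arrays, the thymic epithelial markers are higher on both thymus arrays than on both spleen arrays, and the neutrophil markers sum to 9948 in deltaDC spleen and 137 in WT spleen.

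The enzymes that make collagen had 1 gene called in each organ. Of 26 biosynthesis genes, which hydroxylate, cross-link and trim collagen chains, 15 could be compared in spleen and 1 was at least 2-fold higher in deltaDC, the galactosyltransferase Colgalt2, with 67.6 in deltaDC and 21.9 in WT spleen, which is near the 6.41% of all genes. In thymus 1 of 16 was (0.928% of all genes), the prolyl hydroxylase P4ha2, with 38.4 in deltaDC and 18.01 in WT cells, a log2 difference of 1.09. Both P4ha2 signals were below 50, where the repeated-spot SD of a log2 signal was 0.35. The WT signal lay close to 15.7, the lowest that counted as well above background in WT thymus. Adamts2, which trims procollagen, was at least 2.26-fold higher in deltaDC thymus by bound. The median log2 difference was 0.03 in spleen and 0.09 in thymus. Serpinh1, the collagen chaperone, was dim on all 4 arrays.

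Several receptors for matrix proteins had higher signals in deltaDC spleen. Of 29 genes, 21 could be compared there, with 8 at least 2-fold higher in deltaDC cells and 1 at least 2-fold lower, beside the 6.41% and 2.01% of all genes, and a median log2 difference of 0.08. Itgb5, the integrin beta 5 chain, had 859 in deltaDC and 85.6 in WT spleen, a log2 difference of 3.33. The laminin and collagen receptor chains Itga1 (1.57), Itga2 (1.42), Itga3 (1.41), Itgb1 (1.32) and Itga7 (1.22), the hyaluronan receptor Cd44 (1.10) and the syndecan Sdc4 (1.05) were the other 7 that were higher. The laminin receptor chain Itga6 had 16458 in deltaDC and 36764 in WT spleen, a difference of -1.16. In thymus 0 of 22 measured receptors differed by 2-fold, with a median of -0.06, and the syndecan Sdc1 was at least 2.45-fold higher in deltaDC spleen and 2.09-fold in deltaDC thymus by bound.

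Of 20 matrix proteases and inhibitors, 9 could be compared in spleen, and 2 of them were at least 2-fold higher in deltaDC (6.41% of all genes) and 0 at least 2-fold lower (2.01%). Mmp9, a gelatinase, had 399.5 in deltaDC and 48.4 in WT spleen, a log2 difference of 3.04, and Mmp14, a membrane-bound protease, had 56.7 and 23.9. By bound, Mmp25 was at least 8.36-fold higher and Mmp15 at least 2.85-fold lower in deltaDC spleen, as 30.3% and 40.9% of all genes seen on 1 spleen array were at least 2-fold higher or lower by bound. The median was -0.11 in spleen and -0.06 in thymus, where 0 of 8 differed by 2-fold. Mmp9 and Mmp25, which neutrophils also make, differed on the same arrays as the markers of neutrophils and several other cell types given above. Any part of those cells in these differences was not tested.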

How the data were processed

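The authors deposited scanner output of Agilent Feature Extraction 10.7.3.1, per the file headers, which gives intensity with background subtracted within each array and other columns of flags (0 or 1). RNA (10 ng) was labelled with Cy3, per the labels. The authors also deposited a matrix of log2 values, background-subtracted and quantile-normalized per its header, with column medians from 4.10 to 4.15. Its columns correlated best with the array of the same label (r across genes of at least 0.996). Its offset is unknown, and it served as an alternative.

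Spots with outlier flags (110 to 168 an array) were removed, and 0 were saturated. Log2 intensities were scaled to each array's 75th percentile, spots of a probe averaged, and a gene represented by its brightest probe on average. Matrix genes keep the files' names, and 27510 other probes were named by RefSeq accession and 3488 by symbol. A gene was measured when well above background on both arrays. A bound set the bright signal against the dim one or, if higher, the dim array's lowest signal that was well above background. Limma 3.58.1 in R 4.3.3 (lmFit, eBayes, two-sided, Benjamini-Hochberg) fitted genotype plus organ to genes above background on at least 2 arrays. The scripts were tested on simulated data. All arrays shared 1 slide. Alternatives were normexp (offset 50), quantile normalization, the authors' matrix, no filter, a filter on all 4 arrays, the median over probes and a 1.5-fold limit.

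The members, lists and rules were chosen with earlier results of these data known. Every matrix gene could be named, except that 1 is counted but not reported here. Genes above background on at least 2 arrays, or at least 2-fold different, were given by array, and genes of the receptor, biosynthesis and protease lists when at least 2-fold different between genotypes. Serpinh1 was added after its values were seen.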

Additional observations from a re-analysis of the deposited data

Results flagged for a closer look

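For 5 of the 15 matrix genes seen on all 4 arrays, the deltaDC cells were higher than WT cells in one organ and lower in the other. With 1 array a group this difference between organs was not tested. The same count was not made over all genes, so 5 of 15 cannot be read as a trait of matrix genes. The log2 difference of deltaDC minus WT in spleen, less that in thymus, was 3.14 for Col16a1 (repeated-spot error 0.62) and 1.30 for Lamc1 (0.11), which were higher in deltaDC spleen and lower in deltaDC thymus. It was -1.21 for Col11a2 (0.21), -1.07 for Col7a1 (0.16) and -0.92 for Col23a1 (0.16), which were lower in deltaDC spleen and higher in deltaDC thymus. The thymus difference of Col16a1, -0.33, lay inside its own error of 0.50.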

How the results depend on the processing

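The labels give no replicate numbers, and the fit of genotype plus organ is the organ comparison paired within genotype. The members at least 2-fold different between genotypes numbered 5 in spleen and 2 in thymus. They were 3 and 1 after normexp background correction, 14 and 13 with no filter on dim probes, and 9 and 5 at a 1.5-fold limit. In thymus they were 0 among genes above background on all 4 arrays and 1 with the median over probes. Between organs the counts of 7 in deltaDC and 3 in WT mice became 4 and 1 after normexp, 20 and 16 with no filter, and 11 and 5 at 1.5-fold. The spleen median of -0.15 became -0.33 with no filter. Over all genes, normexp gave 570 calls in spleen against 1055 and 59 in thymus against 209, and 703 between organs in WT mice and 949 in deltaDC mice, against 1191 and 1477. For organ, the limma fit called 2 members after normexp (of 217 genes) and 0 under quantile normalization, the authors' matrix, no filter, the filter on all 4 arrays and the median over probes, against 1 of 64 genes. For genotype it called 0 members and 0 genes under each of the 6 alternatives. Among 97 values of single measured genes under the alternatives, 84 kept their direction and 2-fold call, 13 fell short of 2-fold and 0 changed sign. Of these, the 17 at the 1.5-fold limit and the 12 under the filter on all 4 arrays repeat the main value and could not change. The same holds for genes with a single probe under the median over probes. The 84 is thus no measure of how robust the calls are. After normexp 8 of 17 fell short, among them Lama5 (-0.76) in spleen and Sparc (0.84) in thymus. Normexp adds an offset of 50 before logs, which shrinks differences of dim genes; any other cause was not tested. The Lamc1 difference in spleen was 0.999 after quantile normalization. Signals below 50 have the widest spot error.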

Other observations

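Besides the genes above, 2 collagens were seen on a single array or through a single probe. Col14a1, a fibril-associated collagen of tendon and skin, was above background in deltaDC spleen only, by both of its probes, with 18.2 and 34.9 there against 10.1 and 7.86 (dim) in WT spleen. The signal of 18.2 was below 19.5, the lowest signal that counted as well above background in WT spleen. Col4a4, a basement membrane collagen chain, was above background only through 1 of its 3 probes and only in WT thymus, with 3.37 (dim) in deltaDC thymus and 28.0 in WT thymus.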
